A study of Homo sapiens with 12 samples.

Results

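The genes described here are 7 that human macrophages use to detect bacteria and to answer them: TLR2, CD180, IRAK2, IRAK3, AIM2, CASP5 and PTX3. They were looked up by symbol in the authors' deposited tables of LPS-responsive genes, which hold 3281 genes in either of 2 tables. Of the 7, 6 were found, each in both tables, and IRAK3, an inhibitor of signalling downstream of Toll-like receptors, was in neither table and was not measured here. The cells were THP-1, a line grown from a human monocytic leukaemia, made macrophage-like with the phorbol ester PMA and then given LPS (lipopolysaccharide), a component of the outer membrane of Gram-negative bacteria.

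The 4 groups, with 3 libraries each, were NFKB1 S80A cells 3 hr after 10 ng/ml LPS, wild-type cells 3 hr after the same dose, NFKB1 S80A cells before LPS (0 hr), and wild-type cells before LPS. NFKB1 encodes the p105 precursor and p50 subunit of NF-κB, and S80A replaces a serine of that protein with alanine. All 4 groups had received 25 ng/ml PMA for 72 hr and had then rested for 4 days. How the S80A change was introduced, whether these cells are 1 clone and whether replicates are separate cultures is not given in the sources used here, so the p-values below measure only the spread between these libraries, which may be technical.

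Toll-like receptors are membrane receptors that bind microbial molecules and pass the signal through the adaptor MYD88 and the IRAK kinases to NF-κB and MAP kinases. Inflammasomes are cytosolic assemblies that answer microbial DNA, LPS or membrane damage by activating inflammatory caspases, which release IL-1 family cytokines and open pores in the membrane. Pentraxins are secreted proteins that bind microbes and help phagocytes and complement to clear them.

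By GENCODE release 29 on GRCh38, TLR2 lies at chr4:153684070-153705702 on the plus strand, CD180 at chr5:67179613-67196799 on the minus strand and IRAK2 at chr3:10164865-10243743 on the plus strand. AIM2 lies at chr1:159062484-159147096 and CASP5 at chr11:104994235-105023168, both on the minus strand, and PTX3 at chr3:157436789-157443628 on the plus strand. AIM2 overlaps the pseudogene RAD1P2 on the same strand, and PTX3 lies inside VEPH1, which is read from the opposite strand. The kit kept strand, but the strand setting of the counting is not given in the sources used here. CASP5 has close relatives in CASP4 and CASP1, so its reads could be split among them.

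The 250 bases before each transcription start (RefSeq, GRCh38.p14) were searched on both strands for 2 motifs that bear on LPS-induced genes, the κB motif bound by NF-κB and the AP-1 motif TGANTCA. For TLR2, IRAK2, AIM2 and PTX3 these starts differ from the GENCODE gene starts given above. By GENCODE the AIM2 window lies wholly inside the gene, and the windows of TLR2, IRAK2 and PTX3 run past the gene start. Their motif content is therefore not strictly upstream of the gene under both annotations. The κB motif was present in 9.57% and the AP-1 motif in 6.6% of 27305 promoter windows of the same length. Among the 2247 of these windows that belong to listed genes, the shares were 13.7% and 5.25%. The 3 members with a match are printed because their motif content differs, and TLR2 because its 3 hr genotype difference was the largest of the 6 measured; each runs 5′ to 3′ on the gene's strand, with every match in capitals. The windows are chr4:153684030-153684279 (plus) for TLR2, chr5:67196800-67197049 (minus) for CD180, chr1:159076767-159077016 (minus) for AIM2 and chr3:157436600-157436849 (plus) for PTX3.
TLR2: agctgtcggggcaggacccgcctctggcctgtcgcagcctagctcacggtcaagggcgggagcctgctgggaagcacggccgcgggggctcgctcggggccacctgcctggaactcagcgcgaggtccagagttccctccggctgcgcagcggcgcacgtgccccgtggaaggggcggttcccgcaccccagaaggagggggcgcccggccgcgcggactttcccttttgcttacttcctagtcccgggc
CD180: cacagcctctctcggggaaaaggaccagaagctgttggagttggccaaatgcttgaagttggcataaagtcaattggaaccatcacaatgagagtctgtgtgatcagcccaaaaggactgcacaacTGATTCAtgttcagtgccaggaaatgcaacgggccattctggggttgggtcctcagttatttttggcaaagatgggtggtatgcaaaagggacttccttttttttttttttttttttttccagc
AIM2: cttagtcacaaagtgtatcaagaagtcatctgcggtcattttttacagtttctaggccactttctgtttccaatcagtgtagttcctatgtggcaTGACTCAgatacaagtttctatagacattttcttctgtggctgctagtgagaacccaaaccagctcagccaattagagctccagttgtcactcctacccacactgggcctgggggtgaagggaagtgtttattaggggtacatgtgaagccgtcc
PTX3: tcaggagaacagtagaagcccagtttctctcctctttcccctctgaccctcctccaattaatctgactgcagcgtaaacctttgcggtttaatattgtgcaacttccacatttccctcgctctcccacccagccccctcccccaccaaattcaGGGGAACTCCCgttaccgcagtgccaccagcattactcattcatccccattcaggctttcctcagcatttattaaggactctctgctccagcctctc
The PTX3 window held 2 overlapping κB matches between 97 and 87 bases before the start. The AIM2 window held 1 AP-1 match, 155 to 149 bases before the start. In the CD180 window an AP-1 match lay 124 to 118 bases before the start. No exact match to either motif was found in the windows of TLR2, IRAK2 and CASP5. Near matches were not counted, so other κB-like or AP-1-like sites could be present. A match is a description of the letters, not evidence of binding.

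Values are the authors' scaled reads, gene counts divided by a size factor per library, and 1 read was worth between 0.776 and 1.20 scaled reads. Reads on the listed genes ranged from 1924562 to 5789918 per library. In a principal component analysis, S80A replicate 1 stood apart from the other S80A libraries, scoring -16.9 (3 hr) and -16.7 (0 hr) on the second component where the remaining S80A libraries scored -46.7 to -32.7 and wild-type libraries 25.0 to 40.4. Members are therefore also given without it where a call changes. Of 16 monocyte and macrophage markers, CD14, FCGR3A and CD163 are listed, with summed levels of 2058 to 2570 scaled reads in S80A cells and 1716 to 2482 in wild-type cells at 3 hr. At 0 hr the same sums were 3325 to 7372 scaled reads in S80A cells and 3735 to 5700 in wild-type cells (5699.8 at the highest). The sums overlapped between genotypes at both times, but they mix directions. At 0 hr FCGR3A differed by -1.16 (limma adjusted p = 0.107) and CD163 by -1.11 (0.0509), S80A minus wild type on the log2 scale. CD14 differed by 0.56 (0.305). At an unadjusted limma p under 0.05, 2 of the 3 were lower in S80A cells at 0 hr. Low unadjusted values were common there: PTX3, at an unadjusted limma p of 0.0654, ranked 1570 of the 3281 listed genes. Of 24 markers of other cell types, CD79B is listed, at 4.70 to 45.8 scaled reads, and its part in the results was not tested. The other markers, and the S80A base change itself, were not analysed here.

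After LPS, S80A cells held more TLR2, CD180 and IRAK2 RNA than wild-type cells, by 2.99-fold, 2.71-fold and 2.18-fold of the group means. Before LPS the same ratios were 1.15-fold for TLR2, 1.10-fold for CD180 and 2.55-fold for IRAK2, with overlapping libraries for each. In these bulk libraries, more cells with a transcript and more of it per cell cannot be told apart. AIM2, CASP5 and PTX3 did not pass the test of the genotype difference at 3 hr, and no member passed it at 0 hr. TLR2 alone among the 6 passed the test of a difference in the LPS response between genotypes. The genotype tests are limma fits on log2(scaled reads + 1) with Benjamini-Hochberg adjustment over all 3281 listed genes. By them 3 of 6 members were higher in S80A cells at 3 hr, where 29.2% of all listed genes were. At 0 hr 0 of 6 members were called, against 30.7% of listed genes. Also 0 had an unadjusted limma p under 0.05: the smallest, 0.0654 for PTX3, ranked 1570 of the 3281 listed genes. With edgeR and with DESeq2 1 member, IRAK2, was called, where 497 to 1259 listed genes passed over the 15 alternatives at 0 hr. For the LPS response 1 of 6 was called, higher in S80A cells, where 7.19% of listed genes were called higher and 14.1% in either direction. The median difference of the 6 members was 0.77 at 3 hr and 0.33 at 0 hr on the log2 scale, beside 0.19 at both times over all listed genes.

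**Figure D1:**
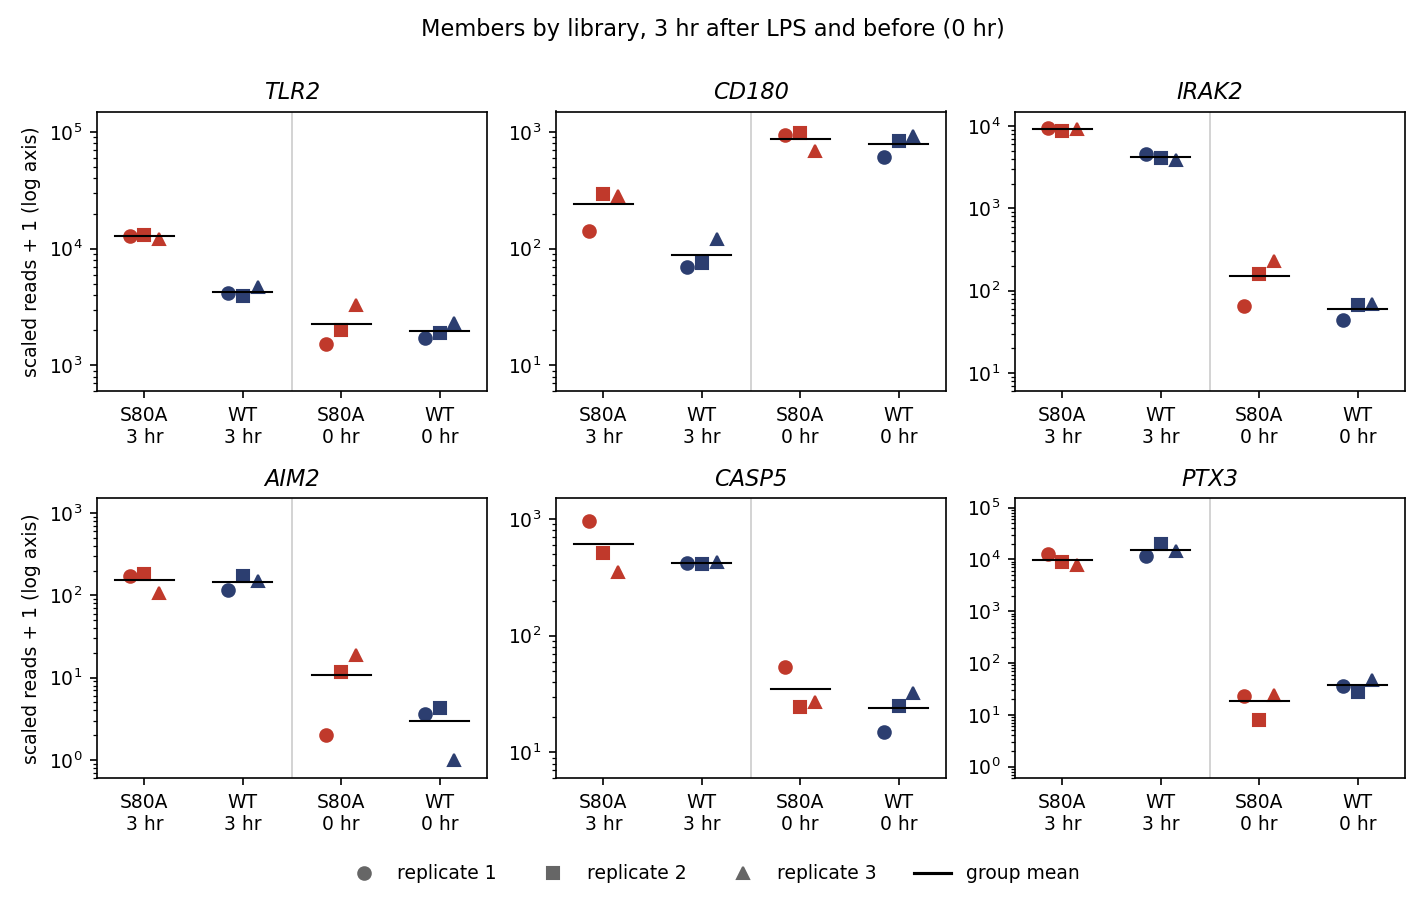
Scaled reads + 1 (log axis) of TLR2, CD180, IRAK2, AIM2, CASP5 and PTX3 in all 12 libraries, with S80A groups in red, wild-type (WT) groups in blue, a symbol per replicate and a bar at the group mean. At 3 hr the S80A and WT libraries do not overlap for TLR2, CD180 and IRAK2; at 0 hr they do not overlap for PTX3 alone.

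TLR2 is a cell-surface receptor for bacterial lipoproteins, which it binds together with TLR1 or TLR6. At 3 hr it was at 12848, 13144 and 12209 scaled reads in S80A replicates 1, 2 and 3, against 4189.7, 3935 and 4661 in wild-type cells. Every S80A library was above every wild-type library at 3 hr, as for CD180 and IRAK2 and for 35.7% of all listed genes, and the S80A values lay close together, with a coefficient of variation of 3.75% in S80A cells and 8.64% in wild-type cells. At 0 hr TLR2 was at 1512, 2011 and 3266 scaled reads in S80A cells, against 1712, 1876 and 2324 in wild-type cells. These 0 hr groups overlapped, and the S80A libraries included both the lowest and the highest value.

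The genotype difference of TLR2 at 3 hr was 1.58 ± 0.18 (log2, SE; 95% interval 1.15 to 2.01; limma adjusted p = 0.00149). Its 0 hr difference was 0.14 ± 0.32 with an interval of -0.66 to 0.93 (limma adjusted p = 0.767), and its sign turned when trimmed-mean (TMM) scaling was used, to -0.09. TLR2 RNA was 5.63-fold higher at 3 hr than at 0 hr in S80A cells and 2.16-fold higher in wild-type cells. The LPS response was larger in S80A cells by 1.44 ± 0.37 (log2, SE). The interval of that difference was 0.64 to 2.25, with a limma adjusted p of 0.0260. This test used the same libraries as the tables, and its adjustment ran over genes that the tables' thresholds had selected. In the authors' deposited tables the log2 fold change of TLR2 was 2.45 in S80A cells, rank 633 of 1516 rising genes. In wild-type cells it was 1.09, rank 1362 of 1441.
The response difference passed in 16 of 22 alternatives, with adjusted p between 0.00311 and 0.0699. It did not pass without S80A 3 hr replicate 2 (0.0562), S80A 0 hr replicate 2 (0.0635), wild-type 3 hr replicate 2 (0.0649), wild-type 0 hr replicate 2 (0.0516) or wild-type 0 hr replicate 3 (0.0699), nor when the 1562 genes in both tables were the only ones tested (0.0510).

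CD180 is a surface relative of TLR4 that, with its partner MD-1, tempers LPS signalling in myeloid cells. It was the single member whose RNA was lower after LPS. At 3 hr it was at 141, 294 and 279 scaled reads in S80A cells, against 69.3, 73.7 and 121 in wild-type cells. The lowest S80A library, replicate 1, was still above the highest wild-type library. At 0 hr the values were 946, 977 and 691 scaled reads in S80A cells and 611, 840.5 and 932 in wild-type cells, and the groups overlapped. The RNA left at 3 hr was 27.4% of the 0 hr mean in S80A cells and 11.1% in wild-type cells.

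The 3 hr genotype difference of CD180 was 1.40 ± 0.37 (log2, SE; 95% interval 0.53 to 2.27; limma adjusted p = 0.0198), and its 0 hr difference was 0.14 ± 0.23 (interval -0.44 to 0.71; adjusted p = 0.672; -0.09 with TMM scaling). Leaving out 1 library at a time, the 3 hr adjusted p was 0.0661 without S80A replicate 2, 0.0619 without S80A replicate 3, 0.0636 without wild-type replicate 1 and 0.0697 without wild-type replicate 2. The difference of its LPS response, 1.26 ± 0.46 (interval 0.25 to 2.28), missed the threshold in limma (adjusted p = 0.0896) and passed in DESeq2 on the recovered reads (adjusted p = 0.0310). Without S80A replicate 1 at both times it was 1.67 and passed (limma adjusted p = 0.0196). In the authors' deposited tables its log2 fold change was -1.82 in S80A cells, the 278th lowest of 992 falling genes, and -3.08 in wild-type cells, the 34th lowest of 894.

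IRAK2 encodes an IRAK family protein of the MYD88 complex that sustains signalling through TRAF6. At 3 hr it was at 9507, 8673 and 9197 scaled reads in S80A cells, against 4597, 4068 and 3909 in wild-type cells. The 3 hr groups did not overlap. At 0 hr it was low, at 63.7, 159.8 and 229.8 scaled reads in S80A cells and 42.4, 66.8 and 68.6 in wild-type cells. S80A replicate 1 fell within the wild-type range at 0 hr and the other S80A libraries lay above it. Within all 3 same-numbered pairs the S80A library was the higher one.

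The 3 hr difference of IRAK2 was 1.12 ± 0.18 (log2, SE; 95% interval 0.69 to 1.56; limma adjusted p = 0.00352), which passed in all 15 alternatives. The 0 hr difference was of similar size but wider error, 1.18 ± 0.52 (interval -0.11 to 2.48; limma adjusted p = 0.138). With the replicate number as a block the SE was 0.28 and the limma adjusted p 0.0555. The difference passed in 4 of 15 alternatives, among them without S80A replicate 1 (1.71, limma adjusted p = 0.0168). IRAK2 RNA was 60.4-fold higher at 3 hr than at 0 hr in S80A cells and 70.7-fold higher in wild-type cells. The response difference was -0.06 with an interval of -1.25 to 1.14 (limma adjusted p = 0.946). In the authors' deposited tables its log2 fold changes were 5.73 in S80A cells and 5.93 in wild-type cells.

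**Figure D2:**
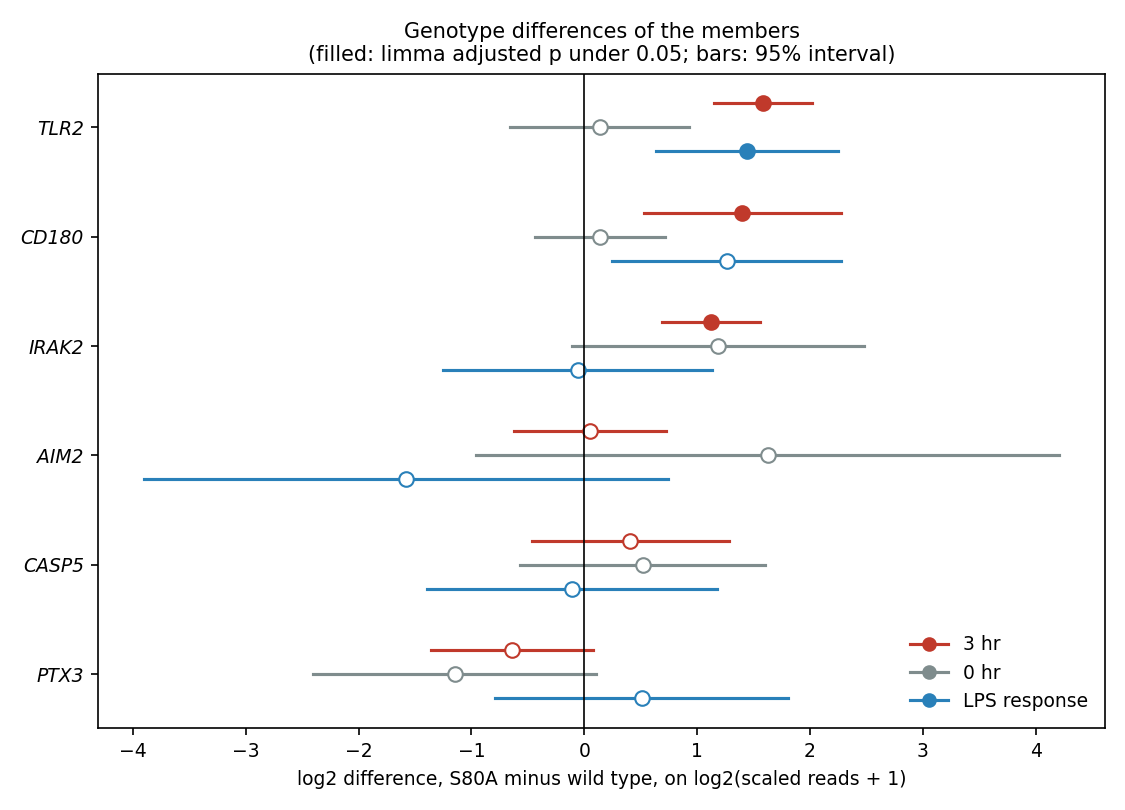
Genotype differences (S80A minus wild type, log2(scaled reads + 1)) of the 6 measured members at 3 hr, at 0 hr and for the LPS response, with 95% intervals; filled points have a limma adjusted p under 0.05. Filled points are TLR2, CD180 and IRAK2 at 3 hr and TLR2 for the LPS response, while the AIM2 intervals at 0 hr and for the response are the widest.

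AIM2 is a cytosolic sensor of double-stranded DNA that assembles an inflammasome through the adaptor ASC. At 3 hr it was at 173, 178 and 106 scaled reads in S80A cells, against 116, 172 and 147 in wild-type cells, and the groups overlapped. Before LPS AIM2 was close to the limit of detection, at 0.996, 10.9 and 17.8 scaled reads in S80A cells and 2.60, 3.22 and 0 in wild-type cells. These rest on 32 reads in the 3 S80A libraries and 7 in the 3 wild-type libraries, and the wild-type library with 0 reads allows up to 2.42 scaled reads (3 reads, counting error only).

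The 3 hr difference of AIM2 was 0.05 ± 0.28 (log2, SE; 95% interval -0.62 to 0.72; limma adjusted p = 0.901; -0.16 with TMM scaling). The 0 hr difference was 1.63 ± 1.03 (interval -0.96 to 4.21; adjusted p = 0.274). The response difference was -1.58 ± 1.06 (interval -3.90 to 0.74; limma adjusted p = 0.318). It passed without S80A replicate 1 at both times (-2.66, limma adjusted p = 0.0408), a replicate with 1 AIM2 read at 0 hr. In the authors' deposited tables the log2 fold change was 3.69 in S80A cells and 5.46 in wild-type cells, and the part of the few 0 hr reads in that gap was not tested.

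CASP5 encodes a human inflammatory caspase that binds cytosolic LPS and cleaves gasdermin D. At 3 hr it was at 962, 511 and 351 scaled reads in S80A cells, against 422, 413 and 425 in wild-type cells. The wild-type libraries were nearly equal, with a coefficient of variation of 1.46%, inside an S80A range whose coefficient of variation was 52.1%. At 0 hr it was at 52.8, 23.3 and 26.2 scaled reads in S80A cells and 13.9, 24.1 and 31.5 in wild-type cells, and S80A replicate 1 was the highest library at both times. The genotype difference was 0.41 ± 0.37 at 3 hr (log2, SE; 95% interval -0.47 to 1.28; limma adjusted p = 0.395), and 0.01 without S80A replicate 1. At 0 hr it was 0.52 ± 0.43 (interval -0.57 to 1.60; limma adjusted p = 0.395). The authors' deposited tables give the same log2 fold change to 2 decimals, 3.98, in S80A and in wild-type cells, and the response difference was -0.11 with an interval of -1.40 to 1.18 (limma adjusted p = 0.905).

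PTX3 encodes the long pentraxin PTX3, a secreted pattern recognition protein of myeloid and endothelial cells. It had the largest LPS response of the 6, 570.0-fold of the group means in S80A cells and 426-fold in wild-type cells. At 3 hr it was at 12915, 8833 and 7881 scaled reads in S80A cells, against 11406, 20243 and 14752 in wild-type cells, with S80A replicate 1 inside the wild-type range. PTX3 at 0 hr was at 21.9, 6.98 and 23.1 scaled reads in S80A cells and 35.5, 26.5 and 46.8 in wild-type cells. At 0 hr every S80A library was below every wild-type library, as was so for 17.5% of all listed genes.

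The 0 hr difference of PTX3 was -1.15 ± 0.50 (log2, SE; 95% interval -2.40 to 0.10; limma adjusted p = 0.137). The 3 hr difference was -0.64 ± 0.30 (interval -1.36 to 0.07; limma adjusted p = 0.121), and its adjusted p was 0.0457 without S80A replicate 1 and 0.0485 with TMM scaling. The response difference was 0.51 ± 0.59 (interval -0.79 to 1.81; limma adjusted p = 0.573). In the authors' deposited tables PTX3 ranked 8 among genes rising in S80A cells, with a log2 fold change of 8.81, and 10 in wild-type cells, with 8.45. PTX3 was the single member with S80A means below wild-type means at both times.

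**Figure D3:**
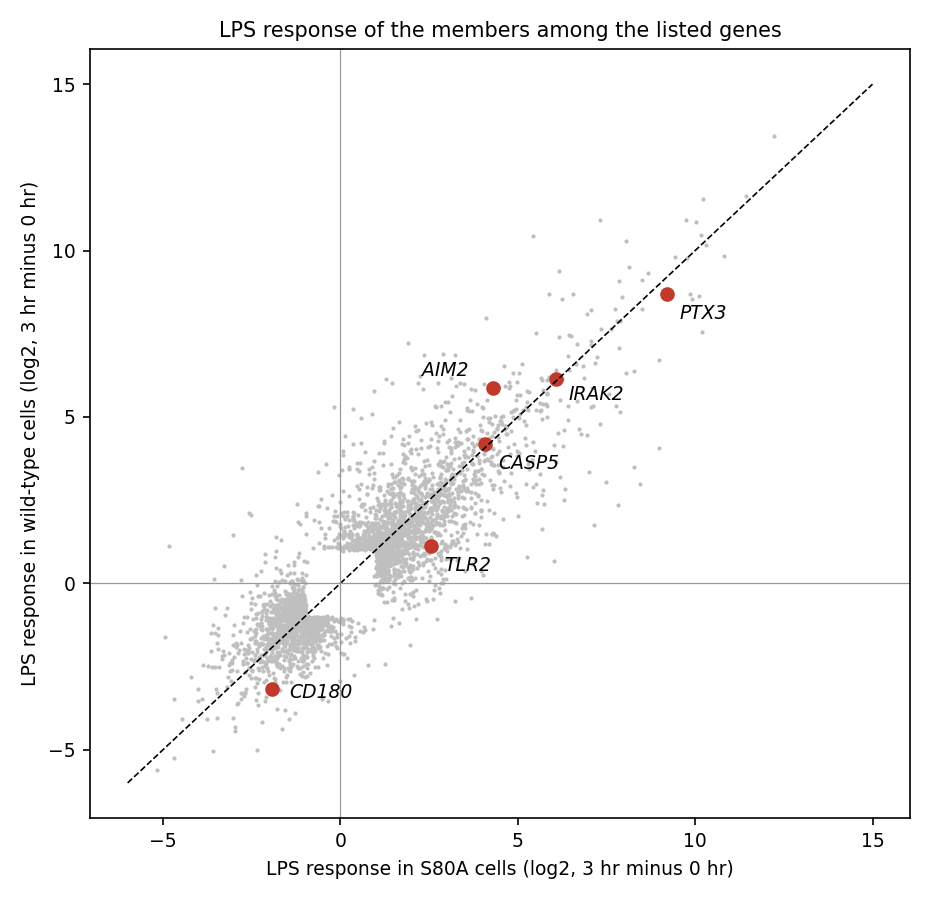
LPS response (3 hr minus 0 hr, log2(scaled reads + 1)) of 3281 listed genes, in S80A cells (x) against wild-type cells (y), with the 6 measured members in red and equality dashed. TLR2 and CD180 lie below the dashed line, AIM2 above it, and IRAK2 and CASP5 on or near it; the empty bands near 0 reflect the thresholds by which the tables were made.

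The members were in both tables, as were 47.6% of listed genes, because the tables list genes past an adjusted p of 0.01 and an absolute log2 fold change of 1. Their responses to LPS are therefore a description and were not tested. In both genotypes 5 members were higher after LPS, as were 1516 of the 2508 genes in the S80A table and 1441 of the 2335 in the wild-type table (46.2% and 43.9% of the 3281 genes in either table). CD180 was lower in both, as were 992 genes in the S80A table and 894 in the wild-type table (30.2% and 27.2% of the 3281).
Scaling moved the genotype differences of all genes together: with TMM factors the median over listed genes shifted by -0.21 at 3 hr and -0.23 at 0 hr on the log2 scale, and the share of called genes that were higher in S80A cells was 51.4% at 3 hr in place of 62.2%, and 47.6% at 0 hr in place of 65.5%. With TMM factors the 3 hr differences were 1.37 for TLR2, 1.20 for CD180 and 0.92 for IRAK2, and each passed.

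**Figure D4:**
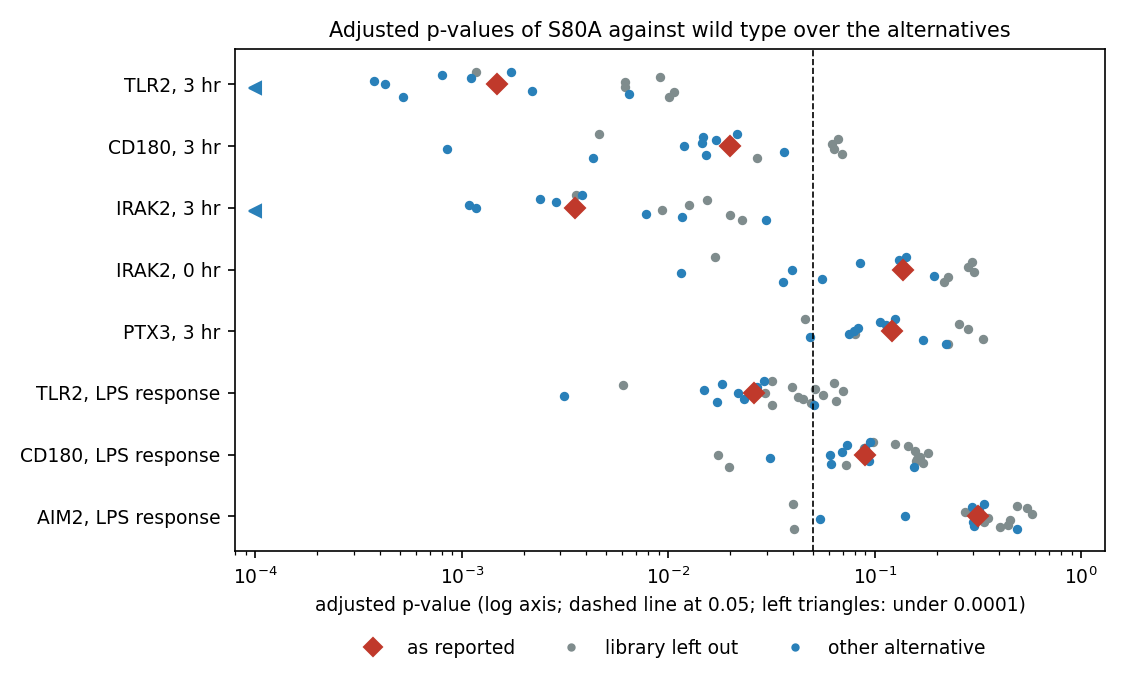
Adjusted p-values (log axis) of S80A against wild type for 8 member results: as reported with limma (red diamonds), with libraries left out (grey) and under the other alternatives (blue, edgeR and DESeq2 among them); the dashed line is 0.05 and triangles are under 0.0001. TLR2 and IRAK2 at 3 hr stay left of the line throughout, and the points of every other result fall on both sides. Most points lie right of the line for IRAK2 at 0 hr, PTX3 at 3 hr and the CD180 and AIM2 responses.

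The other genes of these pathways were read from 4 lists. Of 25 other receptors and co-receptors, 9 are listed, and 4 were higher and 3 lower in S80A cells at 3 hr by limma, where 29.2% of all listed genes were higher and 17.7% lower. The 2 partners of TLR2 were among those higher. TLR1 averaged 1126 ± 123 scaled reads in S80A cells and 169 ± 27.5 in wild-type cells at 3 hr (SD, n = 3 each; 2.74 on the log2 scale, limma adjusted p = 0.000756). Before LPS it averaged 1077 ± 209 in S80A cells and 364 ± 17.4 in wild-type cells (1.55, limma adjusted p = 0.00458). TLR1 thus differed at both times, whereas the 0 hr difference of TLR2 did not pass; the difference between those genes was not tested.

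TLR6, named after its values were seen, averaged 470.0 ± 130.0 scaled reads in S80A cells and 85.1 ± 19.0 in wild-type cells at 3 hr (SD, n = 3 each; 2.44, limma adjusted p = 0.00171). Before LPS TLR6 averaged 687 ± 84.6 in S80A cells and 319 ± 22.2 in wild-type cells (1.10, limma adjusted p = 0.00611). The LPS response was higher in S80A cells for TLR1 (1.19 ± 0.28, limma adjusted p = 0.0202) and TLR6 (1.34 ± 0.35, adjusted p = 0.0308). Both stand only in the wild-type table, as genes lower after LPS. For TLR6 the higher response was a smaller fall on the log2 scale, as its mean was lower after LPS in both genotypes. The TLR1 mean in S80A cells was 1077 scaled reads before LPS and 1126 after. The TLR6 response did not pass in 8 of 12 fits with 1 library left out, namely S80A 3 hr replicate 2 (0.0710) or 3 (0.0622), S80A 0 hr replicate 2 (0.0630), wild-type 3 hr replicate 1 (0.0569) or 2 (0.0541), and wild-type 0 hr replicate 1 (0.0562), 2 (0.0627) or 3 (0.0764). The TLR1 response did not pass without S80A 3 hr replicate 2 (0.0514) or wild-type 0 hr replicate 3 (0.0550). A gene in 1 table was selected on 1 genotype's response, which favours a difference of responses. PGLYRP2, a peptidoglycan-cleaving amidase, was at 219 ± 31.1 scaled reads in S80A cells and 52.7 ± 28.2 in wild-type cells at 3 hr (SD, n = 3 each). The PGLYRP2 response did not pass in edgeR (adjusted p = 0.264) or DESeq2 (0.254). At 0 hr it had 0 reads in S80A cells and in wild-type cells but for 1 library, listed at 0.866 scaled reads. Among the receptors, those lower at 3 hr were NOD2, CLEC4E and CLEC6A. NOD2 senses muramyl dipeptide and was also lower at 0 hr (-2.10, limma adjusted p = 0.0107). The CLEC6A response difference was -3.24 ± 1.06 (limma adjusted p = 0.0643), and CLEC6A stands in the wild-type table alone. TLR7, a receptor for single-stranded RNA, was higher at 3 hr (1.40, limma adjusted p = 0.0120), and TLR8 differed by 0.49 (adjusted p = 0.216). CD14, the co-receptor that hands LPS to TLR4, differed by 0.74 at 3 hr (limma adjusted p = 0.0721).

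Of 23 other signalling genes, 9 are listed. At 3 hr 2 were higher and 0 lower in S80A cells by limma, beside 29.2% and 17.7% of all listed genes. In response 0 differed by limma, beside 14.1% of all listed genes. At an unadjusted p under 0.05, 1 had a higher and 1 a lower response. Such values were common among listed genes: CD180, at an unadjusted limma p of 0.0191 for the response, ranked 700 of 3281. RIPK2, the kinase downstream of NOD receptors, was at 4745 ± 1390 scaled reads in S80A cells and 1839.8 ± 253 in wild-type cells at 3 hr (SD, n = 3 each; 1.33, limma adjusted p = 0.00930). Its response difference was 1.11 ± 0.35 (limma adjusted p = 0.0563; edgeR 0.0401; DESeq2 0.0134). IKBKE, a kinase of the interferon arm, was higher in S80A cells at 0 hr (0.88, limma adjusted p = 0.0413), and at 3 hr differed by -0.10 (adjusted p = 0.784). TAB2, which links TRAF6 to the kinase TAK1, was higher at 3 hr (1.00, limma adjusted p = 0.00656). TICAM1, TRAF3, TAB1, PELI1 and PELI3 did not pass at either time, with 3 hr differences of -0.31 (PELI3) to 0.07 (TICAM1). MYD88, the adaptor in whose complex IRAK2 acts, differed by -0.53 at 3 hr (limma adjusted p = 0.115).

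Of 30 other inflammasome genes, 11 are listed. At 3 hr 3 were higher and 2 lower in S80A cells by limma, beside 29.2% and 17.7% of all listed genes. NLRP3, the sensor of membrane damage and ion flux, averaged 12579.7 ± 536 scaled reads in S80A cells and 3438 ± 230.1 in wild-type cells at 3 hr (SD, n = 3 each; 1.87, limma adjusted p = 0.000950). NLRP3 at 0 hr averaged 2539 ± 368 in S80A cells and 2264 ± 66.2 in wild-type cells, and its response difference was 1.72 ± 0.24 (limma adjusted p = 0.00208). IL18, a cytokine matured by inflammasome caspases, averaged 631 ± 21.6 scaled reads in S80A cells and 311 ± 32.9 in wild-type cells at 3 hr (1.02, limma adjusted p = 0.00520). At 0 hr IL18 was the other way round, at 135 ± 15.7 in S80A cells and 210.1 ± 6.51 in wild-type cells (-0.64, limma adjusted p = 0.0176). Both genes stand only in the S80A table. NLRP2 and PYCARD were lower at 3 hr (-3.24, limma adjusted p = 0.00211, and -1.45, adjusted p = 0.00226). PYCARD encodes ASC, the adaptor shared by AIM2 and NLRP3. At 0 hr NLRP2 was also lower (-2.20, limma adjusted p = 0.0150), and PYCARD differed by -0.80 (adjusted p = 0.0775). IL1B, which encodes interleukin-1β, was higher at 3 hr (1.38, limma adjusted p = 0.0148) and differed by 4.98 at 0 hr (adjusted p = 0.0519). The IL1B response difference was -3.60 ± 1.47 (limma adjusted p = 0.120), opposite in sign to those of NLRP3 and IL18. NLRC4, IFI16, MEFV, NINJ1 and SERPINB1 did not pass at either time, with 3 hr differences of -0.85 (MEFV) to 0.55 (IFI16). CASP4, the near relative of CASP5, differed by 0.15 at 3 hr (adjusted p = 0.620) and was higher at 0 hr (0.65, limma adjusted p = 0.0266).

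Of 20 other humoral genes, 2 are listed. At 3 hr 0 were higher and 1 lower in S80A cells by limma (0 and 2 at an unadjusted p under 0.05). The unadjusted share over all listed genes is not given here, but PTX3, at an unadjusted limma p of 0.0718, ranked only 1942 of 3281. Of all listed genes 29.2% were higher and 17.7% lower by limma adjusted p. TNFAIP6, which binds hyaluronan and PTX3, was lower at 3 hr at 3308 ± 3145 scaled reads in S80A cells against 8486 ± 507 in wild-type cells (-1.77, limma adjusted p = 0.0472), where S80A libraries ran from 1340.4 to 6935. CFB, a complement activation factor, averaged 164 ± 94.7 scaled reads in S80A cells and 331 ± 77.9 in wild-type cells at 3 hr (SD, n = 3 each; -1.13, limma adjusted p = 0.0585). Before LPS CFB averaged 22.4 ± 7.10 in S80A cells and 71.7 ± 32.9 in wild-type cells (-1.55, limma adjusted p = 0.0547). Without members, the median response differences of the 4 lists were 0.80 for receptors, -0.18 for signalling, -0.12 for inflammasome and -0.22 for humoral genes, beside 0.00039 over all listed genes. The humoral median is of 2 genes and was 0.42 with PTX3 included.

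**Figure D5:**
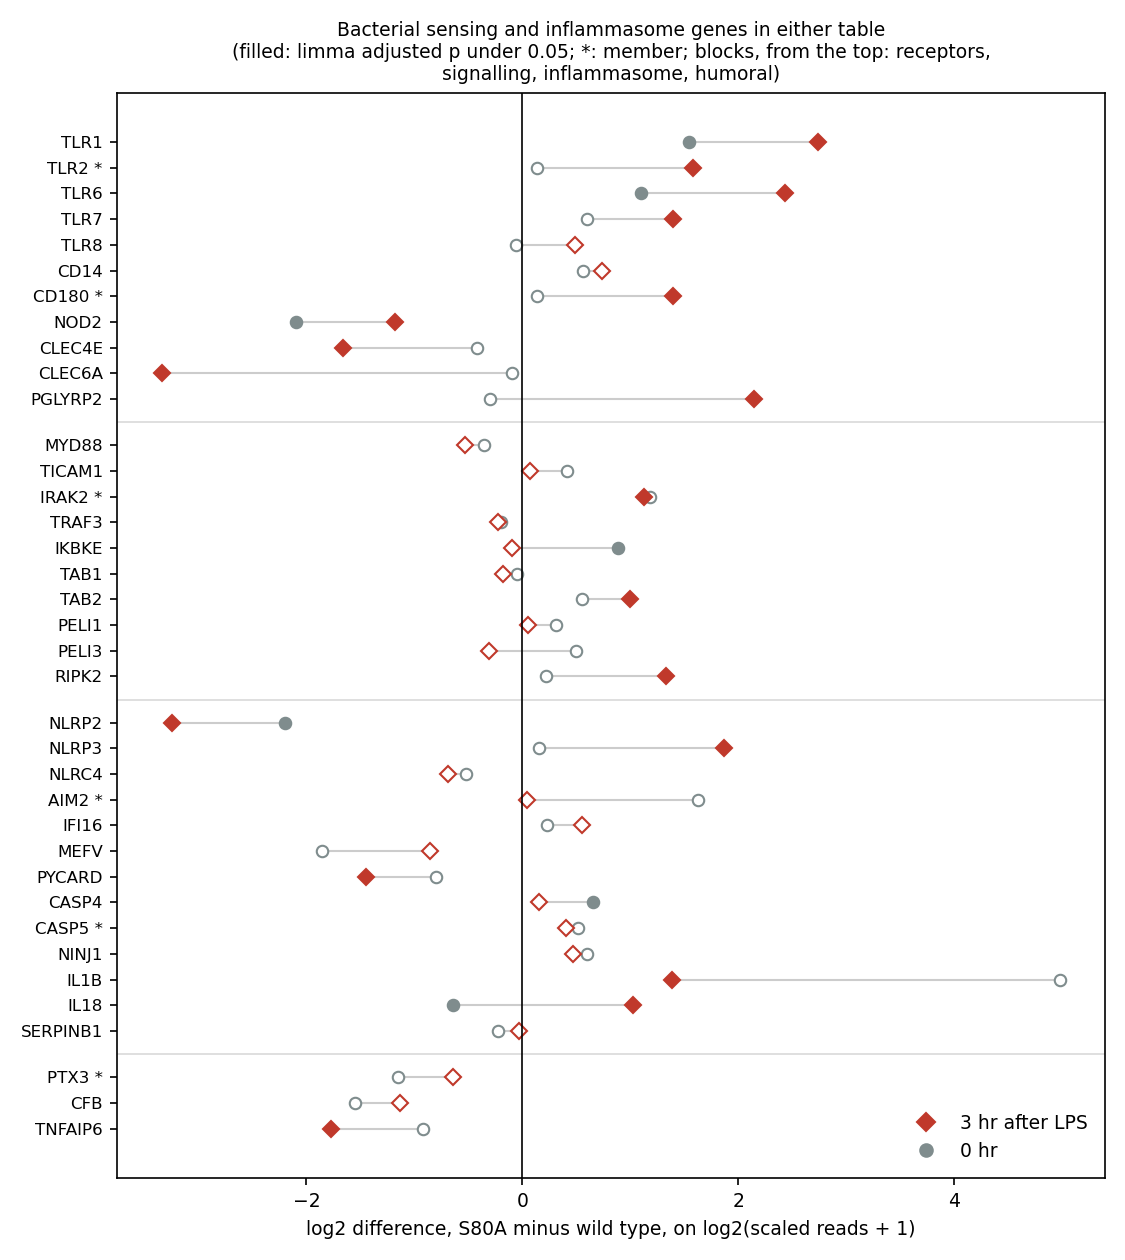
Genotype difference (S80A minus wild type, log2(scaled reads + 1)) of the listed genes of the 4 lists at 3 hr (diamonds) and 0 hr (circles), filled where the limma adjusted p is under 0.05, with the measured members starred. Filled diamonds to the right of 0 are TLR1, TLR2, TLR6, TLR7, CD180, PGLYRP2, IRAK2, TAB2, RIPK2, NLRP3, IL1B and IL18, and those to the left are NOD2, CLEC4E, CLEC6A, NLRP2, PYCARD and TNFAIP6.

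Genes with the most similar pattern were sought by the root mean square difference of centred log2 values over the 12 libraries, among 2511 genes that averaged at least 50 scaled reads. Closest to TLR2 were CLEC2D (0.15) and SAV1 (0.23), against a median of 1.45 over those genes. Closest to IRAK2 were TNFAIP3 (0.20) and BCL2A1 (0.37), against a median of 2.77, and closest to CD180 were FRAT1 (0.34) and TBC1D2 (0.38), against 1.87. AIM2 was nearest to GBP4 (0.61) and DUSP2 (0.72), against 2.44. CASP5 was nearest to LINC00936 (0.35) and PELI1 (0.38), against 1.88, and PTX3 to HCAR2 (0.77) and CXCL2 (0.80), against 4.15. Between members, IRAK2 and AIM2 were the most alike (0.95) and CD180 and PTX3 the least (5.85). All genes were listed for an LPS response, so a gene with a similar LPS step scores as close.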

How the data were processed

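RNA from 12 libraries was sequenced as single-end 75-base reads from stranded poly(A) libraries, per the labels' protocols. FastQC, HISAT, StringTie, Cuffdiff, HTSeq, DESeq2 and GRCh38 are named in the submitters' processing notes, without versions. The authors deposited 2 tables, 1 per genotype, of genes that changed with LPS. Each holds a normalized signal per library (counts divided by size factors), a log2 fold change and p-values (adjusted p under 0.01, absolute log2 fold change over 1), all as deposited by the authors. Dividing by the step of 1 read gave whole reads (within 0.01) for 100% of values, with size factors of 0.834 to 1.29. Only listed genes could be tested, so every p is adjusted over genes already selected for an LPS response.

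Genotypes were compared with limma 3.58.1 (R 4.3.3) on log2(scaled reads + 1), over the 6 libraries of each time and, for the difference of LPS responses, over all 12. Alternatives were edgeR 4.0.16 (quasi-likelihood) and DESeq2 1.42.0 on recovered reads, TMM scaling, other pseudocounts and filters, each library left out, and replicate number as a block. Scripts were tested on simulated data. Same-numbered libraries deviated together at 0 hr (r = 0.188 to 0.259), and for 3 hr against 0 hr in S80A cells (0.196 to 0.299) and wild-type cells (0.153 to 0.343). The labels give the numbers without saying what they share.

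The members and lists were chosen with earlier results of these data known. Named genes are the 7 members, for each of 4 lists the listed genes and up to 2 with the smallest p for the response difference, and for each member the 2 most similar genes. 1 gene of the humoral list was left out of that list and is not reported here.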

Additional observations from a re-analysis of the deposited data

Results flagged for a closer look

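The LPS response differed between S80A and wild-type cells, by limma's interaction term with Benjamini-Hochberg adjustment over the listed genes, for 6 of 37 genes listed of the 4 pathway lists (16.2%), beside 14.1% of all listed genes. These are 1 member and 5 others. Each difference is given as S80A minus wild type on the log2 scale. TLR2 differed by 1.44 (adjusted p = 0.0260). PGLYRP2 differed by 2.45 (limma adjusted p = 0.0101) and did not pass in the count models, edgeR (3.75, adjusted p = 0.264) and DESeq2 (2.84, adjusted p = 0.254). It had at most 1 read in any 0 hr library, so its size moves with the pseudocount, 2.64 at 0.5 and 2.13 at 5. TLR1 differed by 1.19 (limma adjusted p = 0.0202) and TLR6 by 1.34 (adjusted p = 0.0308), in genes listed in the wild-type table alone. TLR1 passed in 19 of 21 alternatives and TLR6 in 13 of 21, of which 4 of 12 with 1 library left out, with adjusted p up to 0.0550 for TLR1 and 0.0764 for TLR6. NLRP3 differed by 1.72 (limma adjusted p = 0.00208) and IL18 by 1.66 (adjusted p = 0.00213), and both passed in all 21 alternatives. They are listed in the S80A table alone, so all of those fits share a selection on the S80A response, and the fit to genes in both tables could not include them.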

How the results depend on the processing

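For the difference of LPS responses, 464 listed genes passed, 805 without S80A replicate 1 at both times, 70 when only genes in both tables were tested, and 259 to 663 with 1 library left out. Of the members 1 passed, 2 with DESeq2, 3 without S80A replicate 1 at both times, 0 among genes in both tables, and 0 to 2 with 1 library left out. At 0 hr 1007 genes and 0 members passed; 1 member, IRAK2, passed with edgeR, with DESeq2 and in a fit to all 12 libraries, and leaving out 1 library gave 497 to 1200 genes and 0 to 1 members. At 3 hr 1541 genes and 3 members passed, and leaving out 1 library gave 1055 to 1788 genes and 2 to 4 members. With the replicate block the counts were 620 genes for the response, 1009 at 0 hr and 1493 at 3 hr, and no member's call changed, while RIPK2 (adjusted p = 0.0358) and IKBKE (0.0355) passed for the response. At 3 hr same-numbered libraries of the genotypes correlated at r = 0.0640 to 0.196. Each S80A library correlated most with the wild-type library of its own number. Wild-type replicate 3, however, correlated more with S80A replicate 2 (0.147) than with S80A replicate 3 (0.0640). Signs turned for TNFAIP6's response, -0.85, with edgeR (0.23), DESeq2 (0.31) and 1 library left out (-1.59 to 0.24). They turned with 1 library left out for the responses of CASP5 (-0.51 to 0.24), IRAK2 (-0.58 to 0.33), PTX3 (-0.011 to 0.79) and CFB (-0.021 to 0.87). At 0 hr they turned for TLR2 (TMM -0.094, 1 left out -0.16 to 0.39) and CD180 (TMM -0.093, 1 left out -0.039 to 0.30), and at 3 hr for AIM2 (TMM -0.16, 1 left out -0.10 to 0.29). None of these had passed the test, and the cause was not tested. Depth limits AIM2 and PGLYRP2 at 0 hr.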
